A study of Mus musculus with 6 samples.

Results

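The 10 genes described here are expressed as neuroepithelial cells of the embryonic brain become radial glia. They are the intermediate filament genes Nes and Vim, the radial glial genes Fabp7 and Slc1a3, the apical membrane gene Prom1, the progenitor regulators Id4, Msi1 and Msi2, and the extracellular genes Tnc and Ptn. The members were taken by gene name from the deposited count tables, and each name matched exactly 1 of the 55471 gene identifiers. The libraries, 3 control and 3 Rx-Dicer, hold RNA of the rostral-most telencephalic primordium of E11.5 mouse embryos. Control embryos were DicerF/F, that is, homozygous for a loxP-flanked Dicer allele, without Cre (their genotype tag reads WT), and Rx-Dicer embryos were RxCre-DicerF/F. The Rx3-Cre line was kept in a CD1 background and the floxed Dicer line in C57BL/6. Cre was driven by regulatory sequences of Rax, and the study's reporter crosses place recombination more strongly in rostral and ventral telencephalon than in the neocortex. Whether each library came from a single embryo or from a pool is not stated, so p-values measure the spread between these libraries only.

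Neuroepithelial cells line the early neural tube as a polarised sheet that divides at the ventricle. Around the onset of neurogenesis they take on astroglial features and become radial glia, which keep an apical contact with the ventricle, send a fibre to the pial surface and give rise to neurons. Nes and Vim are already present in neuroepithelium, whereas Fabp7 and Slc1a3 mark the later radial glial state. Dicer, the enzyme encoded by Dicer1, cuts microRNA precursors into mature microRNAs.

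Of the 10 members, Fabp7 was the 1 that passed the test between genotypes, with less RNA in Rx-Dicer. All 10 were tested, 0 passed in the higher direction (0 at an unadjusted p under 0.05 by DESeq2), and 9 did not pass, which does not show that their levels were equal. Nes had the next smallest p, and its RNA was lowest in Rx-Dicer 1 and Rx-Dicer 3. Genes passed if their absolute log2 fold change was above 0.32 and their DESeq2 p, adjusted over all genes tested, was under 0.05. By that rule 502 of 17127 genes passed, 2.93% of those tested, with 1.75% higher and 1.18% lower. The median log2 fold change (Rx-Dicer minus control) was -0.20 over the members and -0.00090 over all genes tested. It was below 0 in 7 members and above 0 in 3.

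**Figure D1:**
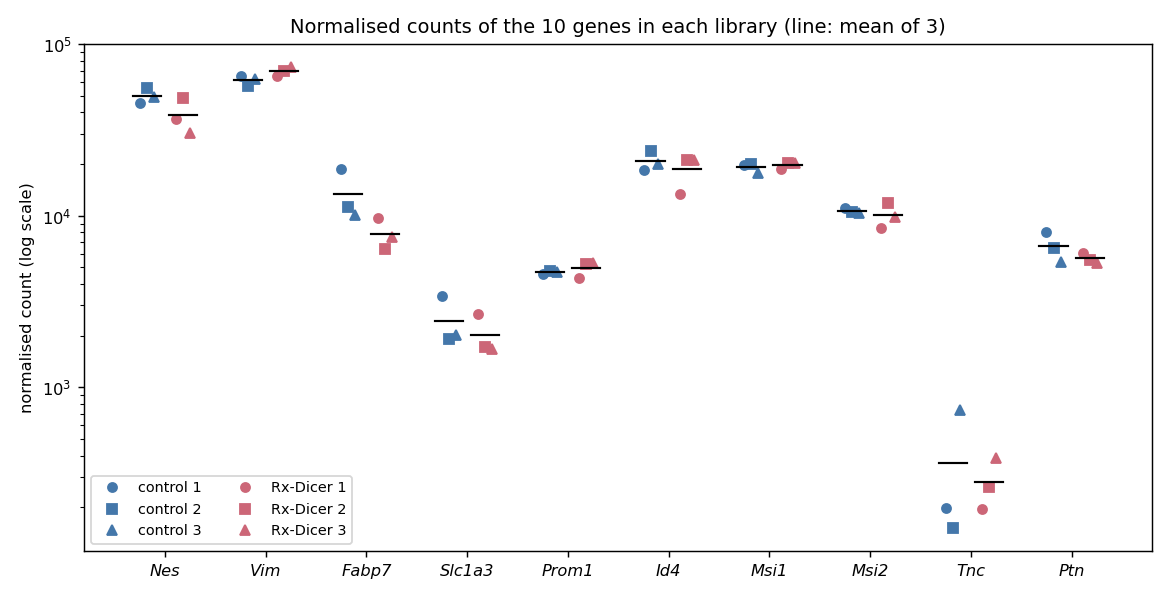
Normalised count of each of the 10 genes (log scale) in the 3 control libraries (blue) and the 3 Rx-Dicer libraries (red), with marker shape for the library number and a black line at the group mean. Fabp7 is lower in every Rx-Dicer library than in any control, and Tnc has its highest value, 739, in control 3.

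The libraries held 34471501 to 48373468 counts on genes. At that depth 3 counts, the upper limit that a count of 0 allows, were 0.0620 to 0.0870 CPM (counts scaled to the library's total), an allowance for counting error only. Normalised counts, used throughout, are counts divided by the library's median-of-ratios size factor. The targeted gene, Dicer1, was counted at 6355, 7070.2 and 6270.4 in the controls against 4777, 7002 and 4644 in Rx-Dicer 1, 2 and 3. Rx-Dicer 2 was therefore at the control level, while Rx-Dicer 1 and 3 lay below every control. The Dicer1 difference, -0.26 ± 0.17 (SE) on the log2 scale, did not pass (DESeq2 adjusted p = 0.567), and the counts are for the whole gene, so transcripts with and without the floxed part are not separated. Rx-Dicer 2 was not at the control level for every gene. For Lin28a, which passed as higher, it had 3365 against 397 to 715 in controls. For Prtg, which also passed as higher, it had 3122 against 463 to 833. Among reads assigned to a gene, to several genes or to none, Rx-Dicer 2 had the highest share assigned to none. That share was 13.2% against 8.15% to 10.5% in the other libraries. Six3, a rostral forebrain transcription factor, was counted in every library, from 684 in control 2 to 3018 in Rx-Dicer 2. It passed as higher in Rx-Dicer by DESeq2, but not by the edgeR quasi-likelihood test, which was run as an alternative.

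Fabp7 was the member with the largest log2 difference. Fabp7 (ENSMUSG00000019874, chr10:57784881-57788450, plus strand, GRCm38) encodes brain lipid-binding protein, a fatty acid carrier of radial glia. Normalised counts were 18594, 11207 and 10098 in controls 1, 2 and 3. In Rx-Dicer 1, 2 and 3 they were 9718, 6391 and 7473. Control 1 stood highest and Rx-Dicer 2 lowest, and the groups did not overlap, although Rx-Dicer 1 and control 3 were close. Mean values were 13299.9 ± 4618 (SD, n = 3) in controls against 7861 ± 1697 (SD, n = 3) in Rx-Dicer, a fall of 0.76 ± 0.22 (SE) on the log2 scale, or 1.69-fold. Its 95% interval was -1.19 to -0.32, and the DESeq2 adjusted p was 0.0307. In tissue RNA, fewer cells of a type and less RNA per cell cannot be told apart.

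The Fabp7 call depended on which libraries were included. Without control 1 the log2 fold change was -0.44 (DESeq2 adjusted p = 0.242). The call was also lost without control 2 (log2 fold change -0.87, adjusted p = 0.0820), without Rx-Dicer 2 (log2 fold change -0.63, adjusted p = 0.226) and without Rx-Dicer 3 (-0.72, adjusted p = 0.193). It held without control 3 (-0.92, adjusted p = 0.0147) and without Rx-Dicer 1 (-0.94, adjusted p = 0.0132). The fold shrank most without control 1, and without control 2 it was larger than with all libraries. The edgeR quasi-likelihood test gave -0.75 with an adjusted p of 0.269. By edgeR 0 members passed, against 8 of 17954 genes, 0.0446%, while 1 member (Fabp7) had an unadjusted p under 0.05, a level that 12.9% of genes reached. By DESeq2 2 members, Fabp7 and Nes, had an unadjusted p under 0.05, as did 13.1% of genes.

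Markers of the dorsal telencephalon shared part of the order of the libraries with Fabp7. Their summed normalised counts over 8 genes were 45368, 38809 and 27238 in controls 1, 2 and 3 and 31490.4, 20734 and 31933 in Rx-Dicer 1, 2 and 3. Control 1 was the highest library for both, control 3 the lowest control for both, and Rx-Dicer 2 the lowest library of all for both. In the dorsal sum, unlike in Fabp7, control 3 lay below Rx-Dicer 1 and Rx-Dicer 3. Within Rx-Dicer the highest library was Rx-Dicer 3 for the dorsal sum and Rx-Dicer 1 for Fabp7. The shared features were not particular to dorsal markers. Other radial glial genes, summed over 30 genes, had them too: 154992, 147960 and 134398 in controls 1, 2 and 3. Their sums in Rx-Dicer 1, 2 and 3 were 149345, 126494 and 127409. Of the 8 dorsal genes 7 had a log2 fold change below 0 (median -0.45), and 2 passed as lower: Pax6 (-0.43 ± 0.12 (SE), DESeq2 adjusted p = 0.0127) and Eomes, a gene of intermediate progenitors (-0.59 ± 0.16 (SE), adjusted p = 0.0137). Both calls were lost by edgeR, by which 0 of this list passed (3 at an unadjusted p under 0.05), and with the replicate block. Pax6 lost its call without control 2, and Eomes without control 1, control 2, Rx-Dicer 1 or Rx-Dicer 2. The part of regional composition in the Fabp7 difference was not tested.

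A stretch of 300 bases around the Fabp7 start in RefSeq (GRCm38.p6, chr10:57784673-57784972, plus strand) is printed because Fabp7 was the member that passed and because Notch signalling and nuclear factor I proteins are known regulators of this gene. Capitals mark matches on either strand to TGGGAA, the core of the site bound by the Notch effector RBPJ, and to TTGGC, an arm of the nuclear factor I site. These short words do not overlap each other here.

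Fabp7 promoter: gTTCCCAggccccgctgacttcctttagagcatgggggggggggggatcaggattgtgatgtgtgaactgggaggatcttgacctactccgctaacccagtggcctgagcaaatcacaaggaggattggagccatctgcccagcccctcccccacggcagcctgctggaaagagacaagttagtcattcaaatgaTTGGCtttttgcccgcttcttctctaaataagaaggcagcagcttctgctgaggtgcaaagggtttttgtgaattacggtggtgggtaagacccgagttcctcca

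TGGGAA was found as its reverse complement at the far 5′ end, and TTGGC lay 55 bases before the RefSeq start. That start lies downstream of the first base of the gene span given above, so the distance to that base is shorter. Of the 9 members with a RefSeq promoter, 5 held TGGGAA in at least 1 promoter (Fabp7, Prom1, Id4, Tnc and Ptn), and 28.3% of all 27025 genes did. TTGGC was in 5 of the 9 as well, and in 50.4% of genes. No promoter was used for Msi1. The matches are letters in a window and were not measured as sites. The matching factors showed no difference that passed: Rbpj was -0.0099 ± 0.12 (SE) on the log2 scale with a 95% interval of -0.25 to 0.23, and Nfia, Nfib and Nfix were 0.13 ± 0.65 (SE), -0.0032 ± 0.64 (SE) and -0.014 ± 0.94 (SE).

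Slc1a3 (ENSMUSG00000005360, chr15:8634124-8710764, minus strand, GRCm38) encodes the glial glutamate transporter GLAST, the other astroglial gene among the members. It was counted at 3387, 1916 and 2021 in the controls. The Rx-Dicer libraries had 2680.2, 1714 and 1669. Control 1 and Rx-Dicer 1 were again the highest of their groups, and Rx-Dicer 1 lay above controls 2 and 3, so the groups overlapped. The difference of -0.27 ± 0.24 (SE) on the log2 scale did not pass (DESeq2 adjusted p = 0.750), with a 95% interval of -0.73 to 0.19. Without control 1 it was 0.038, and without Rx-Dicer 1 it was -0.53.

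Nes (ENSMUSG00000004891, chr3:87971078-87980451, plus strand, GRCm38) encodes nestin, an intermediate filament protein of neural progenitors. Normalised counts in controls 1, 2 and 3 were 45060.2, 55378 and 49137. They were 36505, 48478 and 30376 in Rx-Dicer 1, 2 and 3. Rx-Dicer 1 and 3 lay below all controls and Rx-Dicer 2 lay inside the control range, the same split of the Rx-Dicer libraries as for Dicer1. Over all 6 libraries the difference was -0.37 ± 0.17 (SE) on the log2 scale with a 95% interval of -0.71 to -0.039, an unadjusted p of 0.0286 and an adjusted p of 0.287 (DESeq2), and it did not pass. Without Rx-Dicer 2 it was -0.57 and passed (DESeq2 adjusted p = 0.00450). In that fit Nes passed and Fabp7 did not. With Rx-Dicer 2 kept, Nes did not pass in any of the other 16 alternatives, with adjusted p from 0.178 to 0.797.

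Vim (ENSMUSG00000026728, chr2:13573927-13582826, plus strand, GRCm38) encodes vimentin, which forms filaments with nestin and is also abundant in mesenchyme and endothelium. It was counted at 64997, 57036 and 62754 in the controls against 65193, 69465 and 73504 in Rx-Dicer. All 3 Rx-Dicer libraries were above all controls, but Rx-Dicer 1 and control 1 were nearly equal. The difference was 0.17 ± 0.11 (SE) on the log2 scale with a 95% interval of -0.046 to 0.39, and it did not pass (DESeq2 adjusted p = 0.575). Vim and Fabp7 were the 2 members whose groups did not overlap, and 19.3% of genes tested had non-overlapping groups, 8.55% with Rx-Dicer higher and 10.7% with Rx-Dicer lower. Markers of mesenchyme and meninges, summed over 12 genes, were 56782, 38831 and 84428 in controls 1, 2 and 3 and 75906, 61665 and 60533 in Rx-Dicer 1, 2 and 3. Their lowest library, control 2, was also the lowest for Vim, but the orders otherwise differed. The sum was highest in control 3, and Rx-Dicer 1 was the highest Rx-Dicer library for the sum and the lowest for Vim. The part of these markers in the Vim values was not tested.

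**Figure D2:**
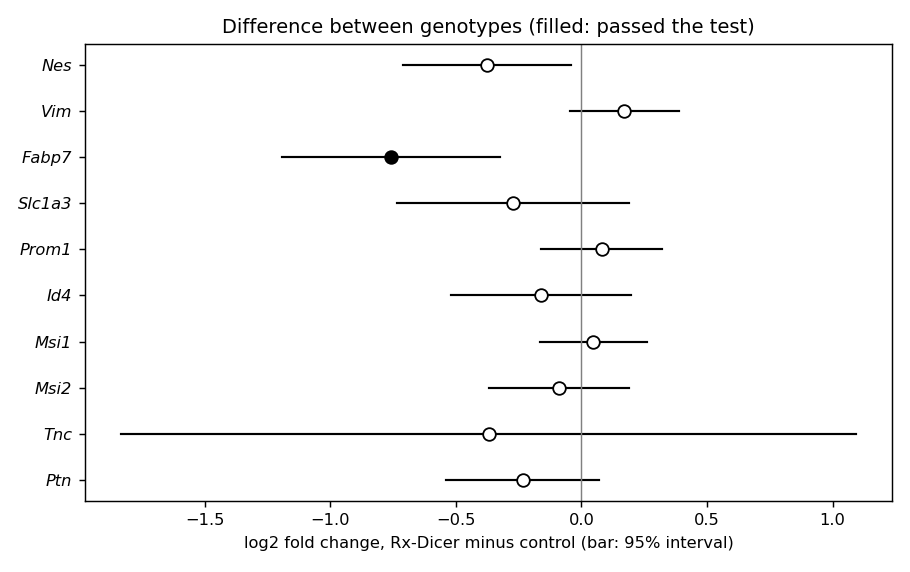
Log2 fold change (Rx-Dicer minus control) of the 10 genes from the DESeq2 fit on all genes, with the 95% interval as a bar and a filled point for the gene that passed the test. The interval of Fabp7 runs from -1.19 to -0.32, that of Nes also lies below 0 before adjustment, and that of Tnc, -1.83 to 1.09, is the widest.

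Prom1 (ENSMUSG00000029086, chr5:43993620-44102032, minus strand, GRCm38) encodes prominin-1 (CD133), a cholesterol-binding protein of apical membrane protrusions. The controls were close together at 4545, 4750.2 and 4718, and Rx-Dicer had 4333, 5213 and 5272. Rx-Dicer 1 was below and Rx-Dicer 2 and 3 were above all controls. The difference of 0.080 ± 0.12 (SE) did not pass (DESeq2 adjusted p = 0.900), and the 95% interval of -0.16 to 0.32 on the log2 scale leaves out the fall seen in Fabp7.

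Id4 (ENSMUSG00000021379, chr13:48261228-48266026, plus strand, GRCm38) encodes an inhibitor of basic helix-loop-helix factors that keeps progenitors in cycle. Normalised counts were 18426, 23932 and 20005 in the controls against 13410.2, 21164 and 21212 in Rx-Dicer. Rx-Dicer 1 was low, and Rx-Dicer 2 and 3 were inside the control range. The difference was -0.16 ± 0.18 (SE) with an interval of -0.52 to 0.20 (DESeq2 adjusted p = 0.846). Without Rx-Dicer 1 it was 0.026.

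The Musashi genes encode RNA-binding proteins that regulate translation in neural progenitors. Msi1 (ENSMUSG00000054256, chr5:115429599-115455698, plus strand, GRCm38) was counted at 19681, 20001 and 17766 in controls against 18724, 20278 and 20376 in Rx-Dicer. Msi2 (ENSMUSG00000069769, chr11:88339382-88718513, minus strand, GRCm38) had 11144, 10540.2 and 10349 in controls against 8428, 11849 and 9824 in Rx-Dicer. Msi1 values were interleaved between the genotypes, and Msi2 was lowest in Rx-Dicer 1 and highest in Rx-Dicer 2. Neither passed: Msi1 differed by 0.048 ± 0.11 (SE) on the log2 scale (95% interval -0.17 to 0.26, DESeq2 adjusted p = 0.949). Msi2 differed by -0.090 ± 0.14 (SE) (interval -0.37 to 0.19, adjusted p = 0.907). The log2 ratio of Msi1 to Msi2 within a library, which needs no scaling between libraries, averaged 0.84 ± 0.075 (SD, n = 3) in controls and 0.99 ± 0.20 (SD, n = 3) in Rx-Dicer.

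Ptn (ENSMUSG00000029838, chr6:36714929-36810220, minus strand, GRCm38) encodes pleiotrophin, a secreted heparin-binding growth factor. It was counted at 7987, 6517 and 5372 in controls against 6038, 5548 and 5325 in Rx-Dicer, and the Rx-Dicer libraries lay at the low end of the control range or below it. The difference of -0.23 ± 0.16 (SE) did not pass (95% interval -0.54 to 0.071, DESeq2 adjusted p = 0.594). Ptprz1, the receptor-type phosphatase that binds pleiotrophin and tenascins, was 9873, 9682 and 11079 in controls against 4888, 10369 and 5768 in Rx-Dicer, with Rx-Dicer 2 at the control level as for Nes, and did not pass (-0.54 ± 0.23 (SE), adjusted p = 0.212). This receptor was singled out after its values were seen.

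Tnc (ENSMUSG00000028364, chr4:63959785-64047015, minus strand, GRCm38) encodes tenascin-C, an extracellular matrix protein that gathers around radial glia later in development. It was the lowest member, at 199, 152 and 739 in controls against 196, 263 and 385 in Rx-Dicer. Control 3 was far above the other libraries and by itself set the direction: the log2 fold change was -0.37 ± 0.75 (SE) with all libraries and 0.68 without control 3, and neither passed (DESeq2 adjusted p = 0.937 and 0.364). Its interval of -1.83 to 1.09 covers a large rise and a large fall. Control 3 was also the highest library for the summed mesenchyme markers given above, and the highest control for ventral telencephalon markers, whose sums over 9 genes were 6579.9, 7180.2 and 13426 in controls 1, 2 and 3 and 5611, 20009.8 and 6647 in Rx-Dicer 1, 2 and 3. Their part in the Tnc values was not tested.

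Of the 4 ratios within libraries, none separated the genotypes, and by exact two-sided permutation over 3 against 3 libraries, where the smallest possible p is 0.1, all adjusted p were 0.9 (Benjamini-Hochberg over 4). The log2 ratio of Fabp7 to Nes was -1.95 ± 0.59 (SD, n = 3) in controls and -2.29 ± 0.56 (SD, n = 3) in Rx-Dicer (exact permutation p = 0.6). Slc1a3 to Nes and Ptn to Tnc each had an exact permutation p of 0.9, and Msi1 to Msi2 had 0.4.

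Libraries of the mutant genotype differed in which members were low. Rx-Dicer 1 was below all controls for 5 members and above all for 1. Rx-Dicer 2 was below for 2 and above for 4, and Rx-Dicer 3 was below for 5 and above for 3. The share of all genes outside the control range in each library was not computed. These counts therefore describe the members and do not set them apart from other genes. Fabp7 was the only member below all controls in all 3, as were 10.7% of genes tested. The members together took 0.437% to 0.461% of gene counts in controls and 0.398% to 0.467% in Rx-Dicer.

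Levels can be compared between genes only per length. Per kilobase of exon, control levels in normalised counts were highest for Vim (12987 ± 865, SD, n = 3), then Fabp7 (10639.9 ± 3695) and Nes (7771 ± 810.0), and neighbours in this top group overlapped between libraries. Id4 (5401 ± 737), Msi1 (3302 ± 208), Ptn (1930.0 ± 382), Msi2 (1026 ± 39.9), Prom1 (651 ± 15.4), Slc1a3 (286 ± 96.2) and Tnc (46.8 ± 42.0) followed, each without overlap with the next. The mean order was the same in Rx-Dicer by this length. By the longest transcript instead, Msi1 stood above Id4 in controls and above Id4 and Nes in Rx-Dicer, overlapping Id4 in controls and Nes in Rx-Dicer. Per kilobase of exon in Rx-Dicer, Fabp7 (6289 ± 1358) overlapped Nes (5993 ± 1435) but no longer Vim (14629 ± 876), Nes overlapped Id4 (4831 ± 1167), and Id4 overlapped Msi1 (3413 ± 159.8). The astroglial pair stood far apart in both genotypes: Slc1a3 was near the bottom and Fabp7 near the top.

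Since Dicer makes microRNAs, the members' 3′ UTRs were searched for the reverse complement of the seed, bases 2 to 8, of 8 microRNAs with a sequence in the RefSeq table. The mature let-7a and miR-9 are shown because let-7 matched no member and miR-9 matched Id4 and Tnc more than once each. Capitals mark the seed in the microRNA and the 7-base match in the transcript, and each transcript window has 29 bases (GRCm38, GENCODE M21).

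mmu-let-7a-5p: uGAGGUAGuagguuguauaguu

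mmu-miR-9-5p: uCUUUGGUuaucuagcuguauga

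Id4 3′ UTR, chr13:48264193-48264221, plus strand: ctctgcttgctACCAAAGgacaaactctt

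Id4 3′ UTR, chr13:48265717-48265745, plus strand: gtataggcaaaACCAAAGaataaggttca

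Tnc 3′ UTR, chr4:63960358-63960386, minus strand: aaaggatttttACCAAAGcatcaacacaa

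Tnc 3′ UTR, chr4:63960235-63960263, minus strand: acttcctttgcACCAAAGacaacagtcta

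In these 29-base windows the second of each pair has A after the match, the base opposite the first of the microRNA. The let-7 word CTACCTC was in none of the 10 members' UTRs and in 9.02% of 21021 genes. The miR-9 word ACCAAAG was in 2 members and in 12.2% of genes. Msi1 and Msi2 each held the miR-137 word AGCAATA (9.68% of genes), Msi1 held the miR-125b word CTCAGGG in 2 places (13.1%), and Msi2 held the miR-128 word CACTGTG in 2 places, a word also found in Slc1a3 and in 18.9% of genes. The miR-17 word GCACTTT was in Prom1 and Id4 (11.8%). No member held a miR-92a or miR-99a word. Nes, Vim, Fabp7 and Ptn had none of the 8 words. The UTR of Fabp7 was 277 bases, against a median of 961 over all genes, and that of Msi2 was 5310 bases. Of the members with a match, none passed the test between genotypes. Over all genes tested 2.93% passed by DESeq2, so this count does not set members with a match apart from other genes.

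**Figure D3:**
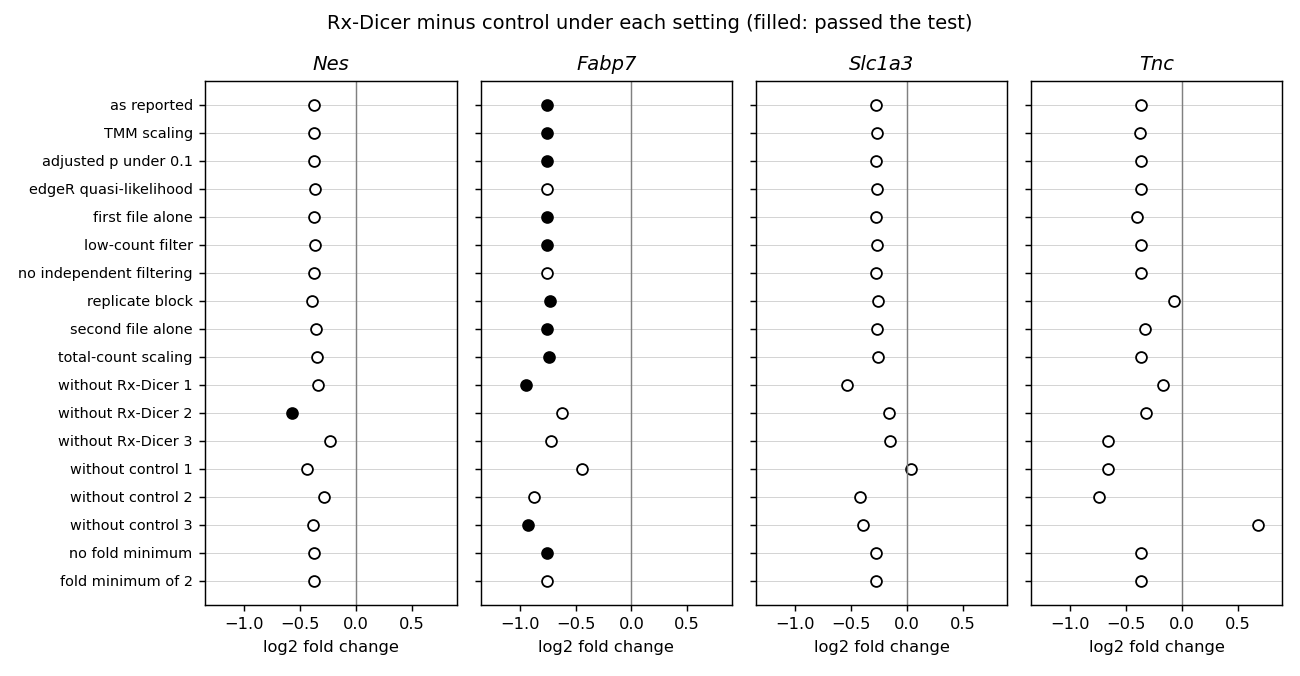
Log2 fold change (Rx-Dicer minus control) of Nes, Fabp7, Slc1a3 and Tnc as reported and under 17 alternative settings, with filled points where the gene passed the test. Fabp7 is below 0 throughout and passes in 10 of 17, Nes passes without Rx-Dicer 2, and Tnc lies above 0 when control 3 is left out.

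Other genes of the same stage were read from the same fit. Among 30 other radial glial genes 26 were tested, 0 passed as higher (1 at an unadjusted p under 0.05 by DESeq2) and 2 as lower, with a median log2 fold change of -0.057. Dbi, which encodes an acyl-CoA-binding protein, was 3899, 4001 and 4587 in controls against 3486, 2857 and 2919 in Rx-Dicer and fell by 0.43 ± 0.13 (SE) on the log2 scale (DESeq2 adjusted p = 0.0450). Ttyh1, a membrane protein of neural progenitors, was 11881, 10567 and 7435 in controls against 7529, 4715 and 6399.7 in Rx-Dicer, with overlapping groups, and fell by 0.68 ± 0.20 (adjusted p = 0.0320). By edgeR 0 of this list passed (4 at an unadjusted p under 0.05). Dbi passed in 6 of 17 alternatives. It lost its call with TMM or total-count scaling, without independent filtering, with the first file alone, with the replicate block, and without control 2, control 3, Rx-Dicer 2 or Rx-Dicer 3, and Ttyh1 lost it without the same 4 libraries as Fabp7 (control 1, control 2, Rx-Dicer 2 or Rx-Dicer 3).

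Of 18 genes of the earlier, neuroepithelial stage, all tested, 5 passed as higher and 0 as lower (0 at an unadjusted p under 0.05 by DESeq2). The other 13 did not pass, and the median log2 fold change was 0.23. This list was chosen with earlier results of these data known, and the study had named Prtg and Lin28 among its most significant genes. The count is therefore not independent evidence of a shift in stage. Trim71, which encodes a let-7-regulated ubiquitin ligase, was 352, 739 and 839 in controls against 1998, 2277 and 2511 in Rx-Dicer (1.81 ± 0.25 (SE), DESeq2 adjusted p = 4.87e-10). Lin28b, a let-7 antagonist, differed by 0.92 ± 0.19 (SE) (adjusted p = 2.79e-04), and Arid3b, a DNA-binding factor, by 0.62 ± 0.16 (SE) (adjusted p = 0.00908, lost without Rx-Dicer 3). Lin28a rose by 2.63 ± 0.22 (SE) and Prtg, an immunoglobulin-family receptor of early neuroepithelium, by 2.43 ± 0.19 (SE). These 2 were the genes of this list that edgeR also called. Of the 18 genes 14 had a log2 fold change above 0 and 4 below, and none of those 4 passed: the junction genes Cdh1 (-1.32 ± 0.77, SE), Cldn6 (-0.43 ± 1.37) and Ocln (-0.14 ± 0.50), and the chromatin gene Hmga1 (-0.063 ± 0.22).

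**Figure D4:**
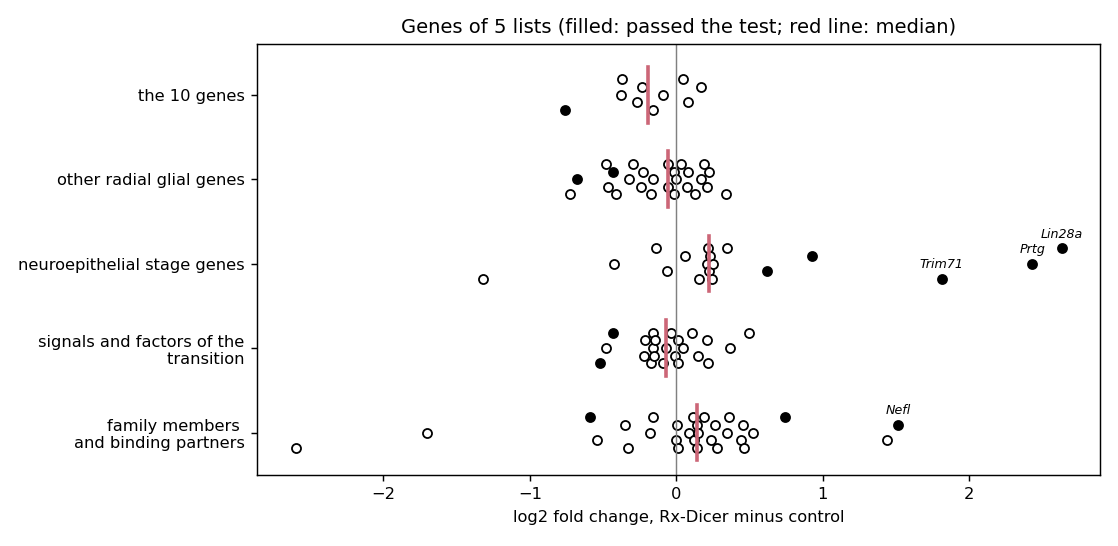
Log2 fold change (Rx-Dicer minus control) of every tested gene in 5 lists, with filled points for genes that passed the test and a red line at the list median. The neuroepithelial stage genes have 5 filled points, all above 0, and the other radial glial genes have 2, both below 0.

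Among 24 signals and factors that act in the transition, 23 were tested, 0 passed as higher (1 at an unadjusted p under 0.05 by DESeq2) and 2 as lower (median -0.070). These were Pax6, given above, and Sox9, a transcription factor of neural stem cells. Sox9 was 10332, 10685 and 10428 in controls against 5949, 7971 and 7992 in Rx-Dicer, and fell by 0.52 ± 0.14 on the log2 scale (DESeq2 adjusted p = 0.0140, lost by edgeR and without control 2 or control 3). Pax6, at 7210.2, 6927 and 6726 in controls against 5064, 4749 and 5629 in Rx-Dicer, was lost by edgeR, with the replicate block and without control 2. By edgeR 0 of this list passed (3 at an unadjusted p under 0.05). The Notch targets Hes1 and Hes5 did not pass, at 0.22 ± 0.25 (SE) and -0.17 ± 0.13 (SE).

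Of 34 family members and binding partners of the members, 30 were tested, 2 passed as higher and 1 as lower (median 0.14). The neuronal intermediate filament gene Nefl, related to Nes and Vim, rose from 263, 383 and 485 in controls to 1487, 593 and 1157 in Rx-Dicer (1.52 ± 0.29 (SE), DESeq2 adjusted p = 6.64e-05, lost without control 2). Nefm rose by 0.74 ± 0.20 (SE) (adjusted p = 0.0179). Ncan, the tenascin-binding proteoglycan neurocan, fell by 0.59 ± 0.17 (adjusted p = 0.0304). Leaving out control 1, control 2, Rx-Dicer 1 or Rx-Dicer 3 lost the calls of both Nefm and Ncan, and Ncan was lost without control 3 as well. Ncan passed in 6 of 17 alternatives, and was also lost with total-count scaling, without independent filtering, with the first file alone and with the replicate block. All 3 calls were lost by edgeR, by which 0 genes of this list passed (6 at an unadjusted p under 0.05).

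Markers of other cells the tissue could hold gave the setting for these values. Of 12 neuron markers 0 passed by DESeq2 or edgeR (4 and 2 at an unadjusted p under 0.05), and the median log2 fold change was -0.21. Gap43 and Elavl3 had the smallest p in that list, at -0.44 ± 0.15 (SE) and -0.41 ± 0.16 (SE) (DESeq2 adjusted p = 0.0841 and 0.152), and the sums were 76567 to 99649 in controls and 66231 to 90531 in Rx-Dicer. Of 10 microglia and blood markers Csf1r (0.98 ± 0.29 (SE)) and Cx3cr1 (1.18 ± 0.31 (SE)), genes of microglia, passed as higher, with Rx-Dicer 2 inside or next to the control range. The sums of that list, mostly globin RNA, were 358337 to 857946 in controls and 296458 to 839687 in Rx-Dicer. Of 12 mesenchyme markers Foxd1 passed as higher (0.70 ± 0.19 (SE)). The calls of Csf1r, Cx3cr1 and Foxd1 were lost by edgeR. Csf1r was also lost on leaving out each library except Rx-Dicer 2, Cx3cr1 without control 2, control 3, Rx-Dicer 1 or Rx-Dicer 3, and Foxd1 without control 1, control 2, Rx-Dicer 2 or Rx-Dicer 3. Of 9 ventral markers Lhx6, a factor of interneuron precursors, passed as higher (1.61 ± 0.34 (SE)), and of 5 forebrain progenitor markers Six3 did (1.27 ± 0.22 (SE)). Both were also lost by edgeR, by which 0 genes of these lists passed, and neither was lost on leaving out a library. Of the ventral markers 7 had a log2 fold change above 0 and 2 below (median 0.20), and of the forebrain progenitor markers 3 and 2. At an unadjusted p under 0.05 there were 4 ventral markers by DESeq2 and 4 by edgeR. For forebrain progenitor markers these counts were 2 and 1.

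In the 8 endothelium, 8 surface ectoderm and 10 cycling cell markers 0 passed by DESeq2 or edgeR. At an unadjusted p under 0.05 there were 0 endothelium and 0 cycling cell markers by both tools, and 3 surface ectoderm markers by DESeq2 and 2 by edgeR. The endothelium list had a median of 0.093 and sums of 7307 to 7730.2 in controls and 4381 to 9642 in Rx-Dicer, with Emcn and Cldn5 of smallest p (0.42 ± 0.21 (SE) and -0.33 ± 0.22 (SE)). Cycling markers had a median of -0.033 and sums of 151814 to 182172 in controls and 148299 to 178440.0 in Rx-Dicer, with Ccnb1 and Aurkb of smallest p (-0.17 ± 0.12 (SE) and -0.13 ± 0.12 (SE)). Surface ectoderm markers had a median of -1.27 and sums of 198 to 2092 in controls and 332 to 997 in Rx-Dicer. Krt14 and Krt5, keratins of surface ectoderm, had the smallest p there (-3.06 ± 1.04 (SE) and -3.47 ± 1.29 (SE)). No marker of these lists was at 0 in all libraries. The part of these cells in the members' values was not tested.

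Of the genes beside the members, none passed. The members overlapped 10 other annotated genes, of which 3 were tested, and had 20 nearest coding neighbours, of which 13 were tested. Of these 16 genes 0 passed by DESeq2 or edgeR (2 and 1 at an unadjusted p under 0.05). Over all genes 2.93% passed by DESeq2 and 0.0446% by edgeR, and 13.1% and 12.9% had an unadjusted p under 0.05. These counts therefore do not set the neighbours apart from other genes.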

How the data were processed

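The deposited values were raw counts of reads per Ensembl gene. The authors trimmed reads (directional libraries, 100 bp pairs) with Trim Galore 0.6.5, aligned them to GRCm38.p6 with HISAT2 and counted them with HTSeq 0.12.4 in union mode, reverse strand. Reads shared by several genes or places were not counted, and antisense genes shared none. Each of the 6 samples had 2 count files. Chi-square per degree of freedom was 1.11 to 1.47 between the files of a sample and 20.5 to 29.6 between samples of a group, so files were summed, and n was 3 per genotype. Rows that name no gene held 24.9% to 31.0% of all reads and were left out.

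Genotypes were compared on all genes by the Wald test of DESeq2 1.42.0 in R 4.3.3 (Benjamini-Hochberg, independent filtering), the tool the study used. The edgeR quasi-likelihood test (edgeR 4.0.16, at 10 or more counts in 3 or more samples) and other settings were alternatives. A gene passed above a log2 fold change of 0.32 in size. The scripts were tested on simulated data. Of 55471 identifiers, 55230 were in GENCODE M21, which gave positions, exon lengths (union of exons, the longest transcript as alternative) and 3′ UTRs (longest per gene). MicroRNAs and promoters came from RefSeq.

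Members and lists were chosen with earlier results of these data known. All members and Dicer1 were named, as were called genes of each list (at most 6 per list) or, where none was called, the 2 of smallest p. Rbpj, Nfia, Nfib, Nfix, Hes1, Hes5, Cdh1, Cldn6, Ocln, Hmga1 and Ptprz1 were named after their values were seen. The values of 1 forebrain progenitor marker are not reported here.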

Additional observations from a re-analysis of the deposited data

How the results depend on the processing

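Over 17 alternatives Fabp7 stayed below 0 (-0.94 to -0.44 on the log2 scale) and passed in 10, with adjusted p from 2.68e-04 to 0.269. The count of members called, 1 as reported, was 0 with edgeR, without independent filtering (Fabp7 adjusted p = 0.0555) and at a fold minimum of 2. It was 0 to 1 on leaving out a library, and without Rx-Dicer 2 the member called was Nes, not Fabp7. Over all genes 502 calls (300 higher, 202 lower) became 8, 8 and 0 with edgeR, 322 without independent filtering (108 lower), 122, 101 and 21 at a fold minimum of 2, and 308 lower at an adjusted p under 0.1. Leaving out a library gave 286 to 637 calls, 172 to 429 higher and 86 to 371 lower. Members that did not pass changed sign on leaving out a library: Slc1a3 (-0.53 to 0.038), Msi1 (-0.0030 to 0.084), Msi2 (-0.22 to 0.019), Id4 (-0.27 to 0.026) and Tnc (-0.74 to 0.68). The causes were not tested.

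With the replicate number as a block (replicate block) there were 314 calls, 87 lower, and Fabp7 was -0.73 (adjusted p = 2.68e-04), the 1 member called. Same-numbered libraries did not deviate together (correlations 0.18, 0.015 and -0.15), so the numbers were not taken as pairs. Depth and 3 libraries per genotype limit what can be seen: the SE of a member's log2 fold change was 0.11 to 0.75. Of the lists, the neuroepithelial stage genes had 2 to 7 calls over the alternatives (5 as reported), and the other radial glial genes 0 to 4 (2 as reported).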
